A study of Homo sapiens with 3 samples.

Results

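Messenger RNA of 54 genes that build ribosomes was followed in TC32, an established Ewing sarcoma cell line that carries the EWS-FLI1 fusion. The genes were taken by symbol from a list of ribosome biogenesis and nucleolar factors, which was drawn up with earlier results of these data known. Membership uses no measured value, and all 54 were found among the 22714 gene names of the RNA-seq tables. There were 3 libraries, 1 per group. The first came from cells with knockdown of EWS-FLI1, the second from cells given YK-4-279 (called YK here) at 3 µM for 15 hours, and the third from control cells. All 3 groups are the same cell line and therefore share the fusion, and YK-4-279 is a small molecule reported to disrupt the contact between the fusion and an RNA helicase, DHX9. It was dissolved in DMSO, but whether the control cells also received DMSO, or a control hairpin, is not in the labels, and neither is the duration of the knockdown. The study addressed loss or inhibition of the fusion, with cell cycle arrest and response to vincristine in view.

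Ribosomes are made mainly in the nucleolus. RNA polymerase I copies ribosomal DNA into a long precursor, small nucleolar ribonucleoproteins (snoRNPs) modify its bases and riboses, and the small subunit processome folds and cuts the part that becomes the small subunit. Separate sets of assembly factors carry the precursors of the small (40S) and large (60S) subunits to the cytoplasm. In many cell types these genes are known targets of the transcription factor MYC, and growing cells, tumour cells among them, need large amounts of their products.

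With 1 library per group no value has a replicate check and no test between groups was possible, so each difference describes these libraries. Values are FPKM (fragments relative to transcript length and library size) after a scaling that sets the median compared gene about equal in the 3 libraries. The relative log2 ratio is the difference of log2(scaled FPKM + 1), and higher and lower are written of genes whose absolute value reached 1. It understates the difference of genes with low values. The standard error (SE) beside a ratio covers counting error only and rests on fragments estimated from the steps in low FPKM, about 22164375 in the knockdown library, 26470567 in the YK library and 36065636 in the control over the compared genes. These depths, and the SEs that rest on them, are approximate. The depth estimated for the control exceeds what FPKM by its plain definition could give, so the libraries are not ordered by depth here. FLI1, which gives the DNA-binding part of the fusion, stood at 1.48 deposited FPKM in the knockdown library, 8.29 with YK and 65.9 in the control, or 2.13, 17.6 and 21.4 after scaling. Of 8 Ewing sarcoma genes examined, CD99 was listed at 0 in all 3 libraries, NKX2-2 had 1.497 scaled FPKM in the knockdown library, 1.37 with YK and 0.852 in the control, and the other 6 stood between 20.2 and 177 in the control. The 8 summed to 106 scaled FPKM in the knockdown library, 324 with YK and 358 in the control. Summed scaled FPKM of 3 fibroblast markers was 40.3 in the knockdown library, 19.9 with YK and 22.6 in the control. LUM gave most of it, at 36.0, 13.5 and 13.7 in the same order, while DCN had 1.70, 5.76 and 8.82. The sum of 4 leukocyte markers was 26.6 in the knockdown library, 14.4 with YK and 20.0 in the control, mostly from CD68, and those of 3 endothelial and 3 epithelial markers lay at or below 1.65. CD3E and KRT5 were at 0 in every library. Whether these markers had a part in the results was not tested.

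Promoter sequences are given first, since the 54 genes are joined by a pathway whose promoters often carry the E-box CACGTG, the letters that MYC binds with MAX. RefSeq promoters (GRCh38.p14, 250 bases before to 50 bases after the start site) matched 46 of the 54 genes by symbol. CACGTG, which reads the same on both strands, stood in 18 of the 46 (39.1%), against 7.43% of 27305 promoters in the table and 10.8% of 7710 promoters of compared genes. The ETS core CCGGAA, searched on both strands, stood in 21 of the 46 (45.7%), against 17.6% of all promoters and 32.6% of those of compared genes. A pair of GGAA repeats, GGAAGGAA, also on both strands, stood in 2 (4.35%), against 3.58% and 3.16%. The last 2 motifs can overlap each other by their shared GGAA. Matches in 6 members follow with their flanks, 5′ to 3′ on the strand of the gene and with the E-box in capitals.
NOP10: agggacactcCACGTGttttagcctg
MRTO4: tcttccgccgCACGTGgattcagcgc
EBNA1BP2: tattgttggcCACGTGggatcgaaga
LTV1: cctggggctgCACGTGtggtgaggcc
NOP2: gtccggattgCACGTGgagggccgc
IMP4: ggtcctaagtCACGTGtgacattctg
They lie at chr15:34343291-34343316 (minus strand) for NOP10, chr1:19251809-19251834 (plus) for MRTO4, chr1:43172792-43172817 (minus) for EBNA1BP2, chr6:143843356-143843381 (plus) for LTV1, chr12:6568242-6568266 (minus) for NOP2 and chr2:130342684-130342709 (plus) for IMP4. Counted from the start site as position 1, the E-box began at 15 in MRTO4, 29 in LTV1 and 36 in NOP2, and at -170 in NOP10, -203 in IMP4 and -237 in EBNA1BP2. They belong to the 6 members with an E-box that had the highest scaled FPKM in the control. The control level is part of the knockdown ratio, so nothing is read from the ratios of these 6.

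The whole promoters of 3 members are printed because they belong to the genes at the ends of the knockdown comparison, WDR18 and MRTO4 with the lowest ratios and BYSL with the highest. They lie at chr19:982678-982977, chr1:19251555-19251854 and chr6:41921249-41921548, all on the plus strand.
WDR18: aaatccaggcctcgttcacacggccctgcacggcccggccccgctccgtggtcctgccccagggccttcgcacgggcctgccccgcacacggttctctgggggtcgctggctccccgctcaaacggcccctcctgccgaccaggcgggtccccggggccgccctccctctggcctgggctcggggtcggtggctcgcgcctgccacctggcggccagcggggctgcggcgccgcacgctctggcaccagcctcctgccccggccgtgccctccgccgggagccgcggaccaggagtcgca
MRTO4: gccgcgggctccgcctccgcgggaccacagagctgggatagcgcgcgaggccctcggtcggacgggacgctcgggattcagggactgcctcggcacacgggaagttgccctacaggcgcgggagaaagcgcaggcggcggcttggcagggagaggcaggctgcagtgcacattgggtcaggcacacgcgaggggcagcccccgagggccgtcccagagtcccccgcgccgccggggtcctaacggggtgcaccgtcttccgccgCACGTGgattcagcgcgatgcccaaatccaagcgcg
BYSL: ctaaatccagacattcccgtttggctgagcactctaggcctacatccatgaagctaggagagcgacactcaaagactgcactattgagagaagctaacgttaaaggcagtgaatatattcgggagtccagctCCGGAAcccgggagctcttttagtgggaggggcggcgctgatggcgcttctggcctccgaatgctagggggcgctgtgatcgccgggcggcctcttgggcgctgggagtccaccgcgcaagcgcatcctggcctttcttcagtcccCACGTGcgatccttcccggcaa
Capitals mark the E-box in MRTO4 at position 15 and in BYSL at 29, and the ETS core in BYSL at -118. The WDR18 window holds none of the 3 motifs. The 18 members with an E-box had a median relative log2 ratio of -1.18 for knockdown over control, and 11 of them were lower. The 28 without one had a median of -1.28, and 18 of them were lower. The median control level differed between these sets, at 28.4 scaled FPKM with an E-box and 55.8 without, and the knockdown ratio moved with level, as given below, so the medians are not compared further. For the ETS core, the 21 members with a match had a median of -1.18 after knockdown and -0.03 with YK, and the 25 without had -1.29 and -0.25. A match is a description of letters, not of binding.

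The 54 genes spanned a wide range of levels. All 54 passed the filter of a mean deposited FPKM of at least 1, with no member left out, as did 9939 of all gene names. NPM1, which encodes the abundant nucleolar protein nucleophosmin, had the highest scaled FPKM of the members in each library, at 902 in the knockdown library, 2665 with YK and 3626 in the control. NOP10, a small protein of the H/ACA snoRNPs, came next, at 479 in the knockdown library, 1393 with YK and 1094 in the control. The member with the lowest value was WDR18 in the knockdown library, at 0.871, WDR18 with YK, at 0.387, and UBTF in the control, at 1.17. The median member stood at 14.7 scaled FPKM in the knockdown library, 26.9 with YK and 33.6 in the control, against medians of 5.89, 4.87 and 4.79 over all compared genes. In the knockdown library 42 members stood above the median compared gene, with YK 43 and in the control 47. The summed scaled FPKM of the members was 2811 in the knockdown library, 7420 with YK and 8168 in the control. Without NPM1 and NOP10 it was 1430, 3363 and 3448, so the sum was lowest in the knockdown library with or without these 2 genes.

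**Figure D1:**
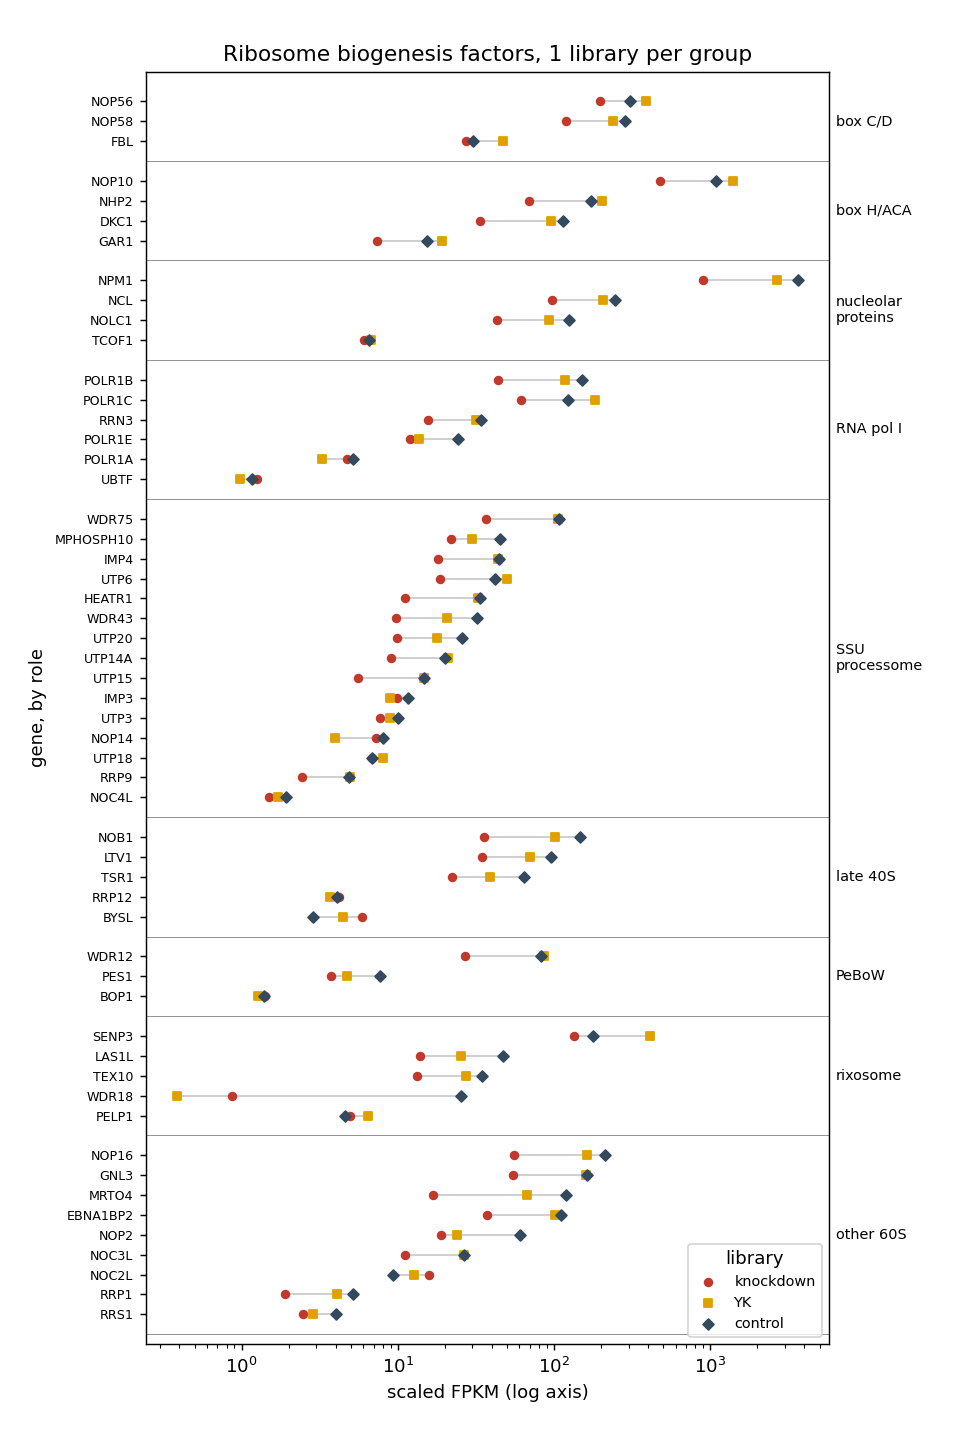
Scaled FPKM (log axis) of the 54 genes, by role, in the knockdown library (circles), the YK library (squares) and the control library (diamonds), 1 library each. The knockdown circle is the leftmost point for 43 of the 54 genes, while the square and diamond lie less than 2-fold apart on the log2(scaled FPKM + 1) scale for 51 genes, all but WDR18 (0.871, 0.387 and 25.2), NOP2 (18.8, 24.0 and 60.8) and SENP3 (134, 412 and 177). The share of all compared genes that were lowest in the knockdown library was not counted.

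After knockdown of the fusion most of these genes had less messenger RNA relative to the median compared gene. Of the 54, 32 were lower and 0 were higher, and 47 had a ratio below 0. Over all compared genes, 17.0% were lower and 17.3% were higher. The members' median relative log2 ratio was -1.15, from -3.81 in WDR18 to 0.84 in BYSL, against 0.0064 over all compared genes. The counting SE ran from 0.0067 to 0.114, and 48 of the 54 ratios lay more than 1.96 counting SE from 0. With YK 42 of the 54 ratios did. The share over all compared genes was not counted, so neither count is read as a result about the members. In a culture profiled as a whole, fewer cells that use a gene and less of its RNA per cell cannot be told apart.

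The lower calls depended on the scale. Scaled on the upper quartile, 18 members were lower and 2 higher, with 9.69% of compared genes lower and 24.1% higher. Scaled on all named genes, scarce ones included, 40 members were lower and 0 higher, with 33.8% of compared genes lower and 9.17% higher. Relative to the median compared gene of the same scale, the members' median was -1.16 on the main scale, -1.11 on the upper quartile, -1.29 on all named genes and -1.47 with deposited ratios centred on their median. Every role median lay below the median compared gene on each of these scales.

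With YK few of these genes passed the threshold. Of the 54 genes, 2 were lower (WDR18 and NOP2) and 1 was higher (SENP3, whose row joins other genes), while 51 were neither. Over all compared genes 1.69% were lower and 2.41% were higher. The members' median was -0.14, from -4.24 in WDR18 to 1.21 in SENP3, against 0.029 over all compared genes. On the scale of all named genes 11 members were lower and 0 higher, with 8.18% of compared genes lower and 1.56% higher. With deposited ratios centred on their median 8 members were lower and 0 higher, with 4.49% of compared genes lower and 12.3% higher.

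The 2 comparisons share the single control library, so a high or low control value moves both. Side by side, 2 members were lower in both, 30 were lower after knockdown and neither with YK, 1 was neither after knockdown and higher with YK, and 21 were neither in both. Of all compared genes 17.0% were lower after knockdown and 1.69% with YK. Their shares in each combination were not counted, so the combined counts are not read as a result about the members. Set against each other directly, the YK library had 25 members higher and 0 lower than the knockdown library, with 15.3% of compared genes higher and 14.5% lower. The members' median for YK over knockdown was 0.98, against -0.015 over all compared genes. Scaled on the upper quartile 19 members were higher, with 10.9% of compared genes higher and 19.3% lower, and with deposited FPKM unscaled 5 were higher, with 5.08% of compared genes higher and 21.5% lower.

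**Figure D2:**
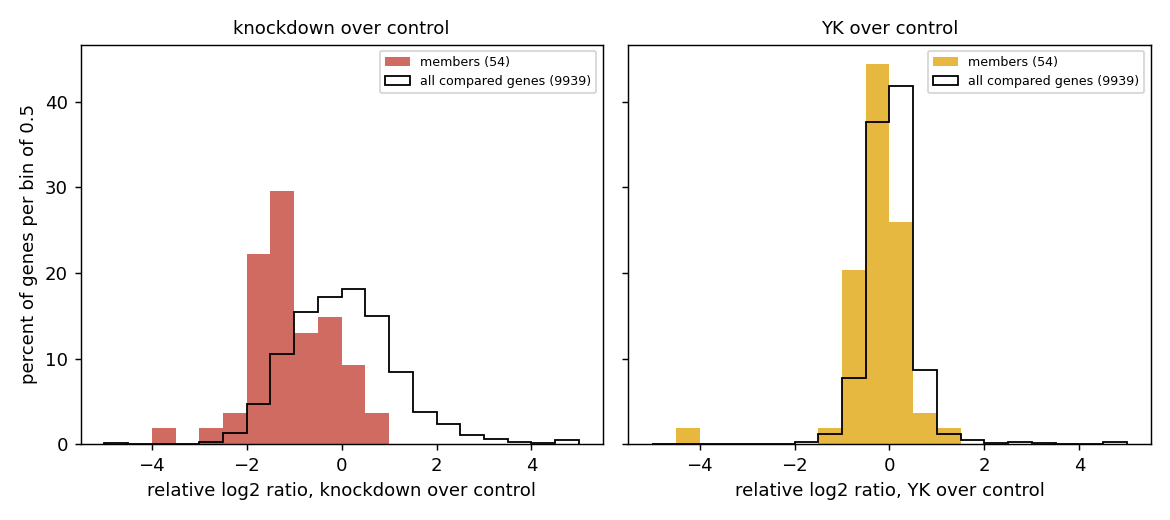
Percent of genes in bins of 0.5 on the relative log2 ratio, for the 54 members (filled) and all 9939 compared genes (outline), for knockdown over control on the left and YK over control on the right. Values of compared genes beyond the axis are gathered in its end bins. The members sit to the left of the outline after knockdown, with medians of -1.15 and 0.0064, and close to it with YK, with medians of -0.14 and 0.029.

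Transcription of ribosomal RNA depends on RNA polymerase I, and its genes gave a divided result. POLR1B, the second largest subunit, had 44.0 scaled FPKM in the knockdown library, 118 with YK and 151 in the control. Its relative log2 ratio was -1.76 (SE 0.017) for knockdown and -0.36 for YK, but its row also holds the neighbouring gene CHCHD5. RRN3, the initiation factor that brings the polymerase to the promoter, had 15.6 scaled FPKM in the knockdown library, 31.5 with YK and 33.8 in the control, and its knockdown ratio was -1.07. These were the 2 of 6 genes called lower after knockdown, where the median of the role was -0.97. Beside this and the later counts by role, 17.0% of all compared genes were lower after knockdown. That share was 47.5% in the highest of 5 bins of level, described below, and 24.7% in the next. The counts by role were not set against genes of the same level. POLR1C, a subunit shared with RNA polymerase III, had 61.4 scaled FPKM in the knockdown library, 183 with YK and 122 in the control. It was thus below the control after knockdown (-0.98, just short of the threshold) and above it with YK (0.58). POLR1E had 11.9, 13.7 and 24.2 scaled FPKM in the knockdown, YK and control libraries, with ratios of -0.97 for knockdown and -0.78 for YK. UBTF, which binds ribosomal DNA and opens it for transcription, had 1.25 scaled FPKM in the knockdown library, 0.975 with YK and 1.17 in the control. Its ratios of 0.05 and -0.14 lay within 1.96 counting SE of 0. POLR1A, the largest subunit, shares its row with LOC90784 and had 4.74, 3.29 and 5.14 scaled FPKM in the same order of libraries. Its ratio for YK over knockdown, -0.42, was among the 3 lowest of the members.

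Of the snoRNP proteins, 3 of 4 in the H/ACA particle and 1 of 3 in the box C/D particle were lower after knockdown. H/ACA particles guide the change of uridine to pseudouridine, and the median knockdown ratio of their core genes was -1.24. DKC1, the pseudouridine synthase dyskerin, had 33.8 scaled FPKM in the knockdown library, 95.2 with YK and 113 in the control, and ratios of -1.72 (SE 0.025) and -0.25. NOP10 had a knockdown ratio of -1.19 and, with YK, 0.35. NHP2 lay between these 2 after knockdown, at -1.30, and stood at 0.24 with YK. GAR1 had 7.34 scaled FPKM in the knockdown library, 19.3 with YK and 15.3 in the control, with a knockdown ratio of -0.96 (SE 0.083). All 4 genes were higher with YK than after knockdown, by 1.28 to 1.54 on the relative log2 scale. Of all compared genes 15.3% were higher in this comparison, and 43.9% of those in the highest of 5 bins of control level. Set against the median of compared genes of the same control level, the 4 ratios were 0.56 to 0.95, short of the threshold.

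Box C/D particles guide methylation of ribose. NOP58, a scaffold protein, had 119 scaled FPKM in the knockdown library, 239 with YK and 284 in the control, and was lower after knockdown (-1.25, SE 0.016). FBL, the methyltransferase fibrillarin, had 27.2 scaled FPKM in the knockdown library, 47.4 with YK and 30.3 in the control. Its ratio of -0.15 after knockdown was the nearest to 0 of the 3 genes, and its ratio of 0.63 with YK was the highest of the members with a row of their own. NOP56, the partner of NOP58, had 197, 388 and 307 scaled FPKM in the knockdown, YK and control libraries. Its row is joined with SNORD86 and MIR1292, RNAs that lie within the gene, and its ratios were -0.63 and 0.34. The role medians for YK, 0.34 for box C/D and 0.28 for H/ACA, were above 0 here and on the upper quartile, but turned to -0.16 and -0.20 when deposited ratios were centred on their median, and were -0.18 and -0.23 on the scale of all named genes, where the median compared gene stood at -0.38.

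Among the abundant nucleolar proteins and cofactors of snoRNPs and RNA polymerase I, taken as 1 role, 3 of 4 were lower after knockdown, with a median of -1.42. NPM1, a chaperone of ribosome assembly and export, had the lowest ratio of the role, -2.01 (SE 0.0067), from the levels given above. Its ratio with YK was -0.44. NPM1 has many near-identical pseudogene copies, and how reads that fit several places were shared is not given in the sources used here. NOLC1, a chaperone of snoRNPs, had 43.2 scaled FPKM in the knockdown library, 92.4 with YK and 125 in the control, and NCL, nucleolin, had 96.9, 205 and 245. Their knockdown ratios were -1.51 and -1.33. TCOF1 (treacle), which binds RNA polymerase I and snoRNPs, differed from these 3, with 6.11 scaled FPKM in the knockdown library, 6.77 with YK and 6.50 in the control. Its ratios were -0.08 and 0.05.

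The small subunit processome, which assembles on the 5′ end of the precursor, was the largest role, and 9 of its 15 genes were lower after knockdown (median -1.08). WDR43, WDR75, HEATR1 and UTP15 belong to the early UTP-A complex, which is also tied to transcription of ribosomal DNA. WDR43 had the lowest ratio of the role, with 9.71 scaled FPKM in the knockdown library, 20.7 with YK and 31.9 in the control (-1.62, SE 0.039). WDR75, HEATR1 and UTP15 followed with knockdown ratios of -1.52, -1.498 and -1.26, and their YK ratios of -0.01, -0.03 and -0.0039 were close to 0. The genes UTP20, IMP4, UTP6, UTP14A and MPHOSPH10 completed the 9, with knockdown ratios from -1.29 to -1.004. UTP6 had 18.7 scaled FPKM in the knockdown library, 49.99 with YK and 41.99 in the control, and its YK ratio of 0.25 was the highest of the role. The remaining 6 genes, UTP18, UTP3, RRP9, IMP3, NOP14 and NOC4L, had knockdown ratios from -0.76 to 0.01. UTP18 had 6.86 scaled FPKM in the knockdown library, 7.998 with YK and 6.78 in the control. NOP14 differed from most members, with 7.19 scaled FPKM in the knockdown library, 3.96 with YK and 8.09 in the control. Its YK ratio was -0.87 (SE 0.068) and its knockdown ratio -0.15, and YK over knockdown, at -0.72, was the lowest of the 54.

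Late steps of the small subunit held the member with the highest knockdown ratio and the one with the fourth lowest, and 3 of the 5 genes were lower. NOB1, the nuclease that makes the final cut of the small subunit RNA, had 35.5 scaled FPKM in the knockdown library, 101 with YK and 146 in the control (-2.005, SE 0.030, after knockdown, and -0.52 with YK). TSR1 had 22.1 scaled FPKM in the knockdown library, 38.7 with YK and 64.5 in the control, and its ratios were -1.504 and -0.72. LTV1 was also lower after knockdown, at -1.46. BYSL, bystin, was the member with the highest knockdown ratio, at 5.93 scaled FPKM in the knockdown library, 4.47 with YK and 2.88 in the control. Its ratios were 0.84 (SE 0.083) and 0.49, neither past the threshold, which it passed after knockdown (1.02) with 0.1 added in place of 1. RRP12, an export factor, had 4.22, 3.67 and 4.09 scaled FPKM in the knockdown, YK and control libraries, and its knockdown ratio was 0.04.

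The large subunit factors held the 2 lowest ratios, those of WDR18 and MRTO4. In the PeBoW complex, WDR12 had 26.9 scaled FPKM in the knockdown library, 86.8 with YK and 82.3 in the control, and was lower after knockdown (-1.58, SE 0.017) and near 0 with YK (0.08). Its partners differed from it. PES1 had 3.75, 4.72 and 7.72 scaled FPKM in the knockdown, YK and control libraries, with ratios of -0.88 and -0.61, and BOP1 had 1.41, 1.28 and 1.39, with ratios of 0.01 and -0.07.

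WDR18 stood apart from all other members. It belongs to the rixosome, in which PELP1, TEX10 and WDR18 work with the nuclease LAS1L and the SUMO protease SENP3 to remove an internal spacer from the large subunit precursor. WDR18 had 0.605 deposited FPKM in the knockdown library, 0.183 with YK and 77.6 in the control, or about 57, 22 and 1916 estimated fragments. After scaling these were 0.871, 0.387 and 25.2, so both treated libraries were far below the members' median level and the control was near it. Its relative log2 ratios were -3.81 (SE 0.095) and -4.24 (SE 0.091). With values this low in the treated libraries they depend on the value added before the log, and with 0.1 in place of 1 they were -4.70 and -5.70. Both ratios rest on the same control library. The other partners showed no such difference. LAS1L had 13.8 scaled FPKM in the knockdown library, 25.3 with YK and 47.0 in the control (-1.70 and -0.87), and TEX10 had 13.3, 27.1 and 34.4 (-1.31 and -0.33). PELP1 had 4.93 scaled FPKM in the knockdown library, 6.41 with YK and 4.57 in the control, with ratios of 0.09 and 0.41.

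SENP3 had 134 scaled FPKM in the knockdown library, 412 with YK and 177 in the control, and ratios of -0.41 and 1.21 (SE 0.012). It was the only member higher with YK, but its row joins EIF4A1, a translation initiation factor, and several small nucleolar RNAs, so the value is not that of SENP3 alone. Among the 50 members with a row of their own, 31 were lower after knockdown, 2 were lower with YK and 0 were higher in either comparison. Of all compared genes 17.0% were lower and 17.3% higher after knockdown, and 1.69% lower and 2.41% higher with YK.

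The other large subunit factors had the lowest role median after knockdown, -1.55, with 7 of 9 lower. MRTO4, a relative of the ribosomal stalk protein P0 that holds its place during assembly, had 16.7 scaled FPKM in the knockdown library, 66.7 with YK and 119 in the control. Its knockdown ratio was -2.76 (SE 0.036), or 6.78-fold lower, and its YK ratio -0.83. It also had the highest ratio for YK over knockdown, 1.94. NOP16 had 55.1 scaled FPKM in the knockdown library, 162 with YK and 212 in the control, with ratios of -1.93 and -0.39. NOP2, a methyltransferase of the large subunit RNA, had 18.8 scaled FPKM in the knockdown library, 24.0 with YK and 60.8 in the control. With ratios of -1.64 (SE 0.034) and -1.30 (SE 0.032) it was, beside WDR18, the only member lower in both comparisons. GNL3 (nucleostemin), EBNA1BP2, NOC3L and RRP1 were also lower after knockdown, from -1.56 to -1.09, and had YK ratios from -0.27 to 0.01. NOC2L was the exception, with 15.9 scaled FPKM in the knockdown library, 12.7 with YK and 9.34 in the control, and ratios of 0.71 (SE 0.048) and 0.41. RRS1 had a knockdown ratio of -0.54.

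**Figure D3:**
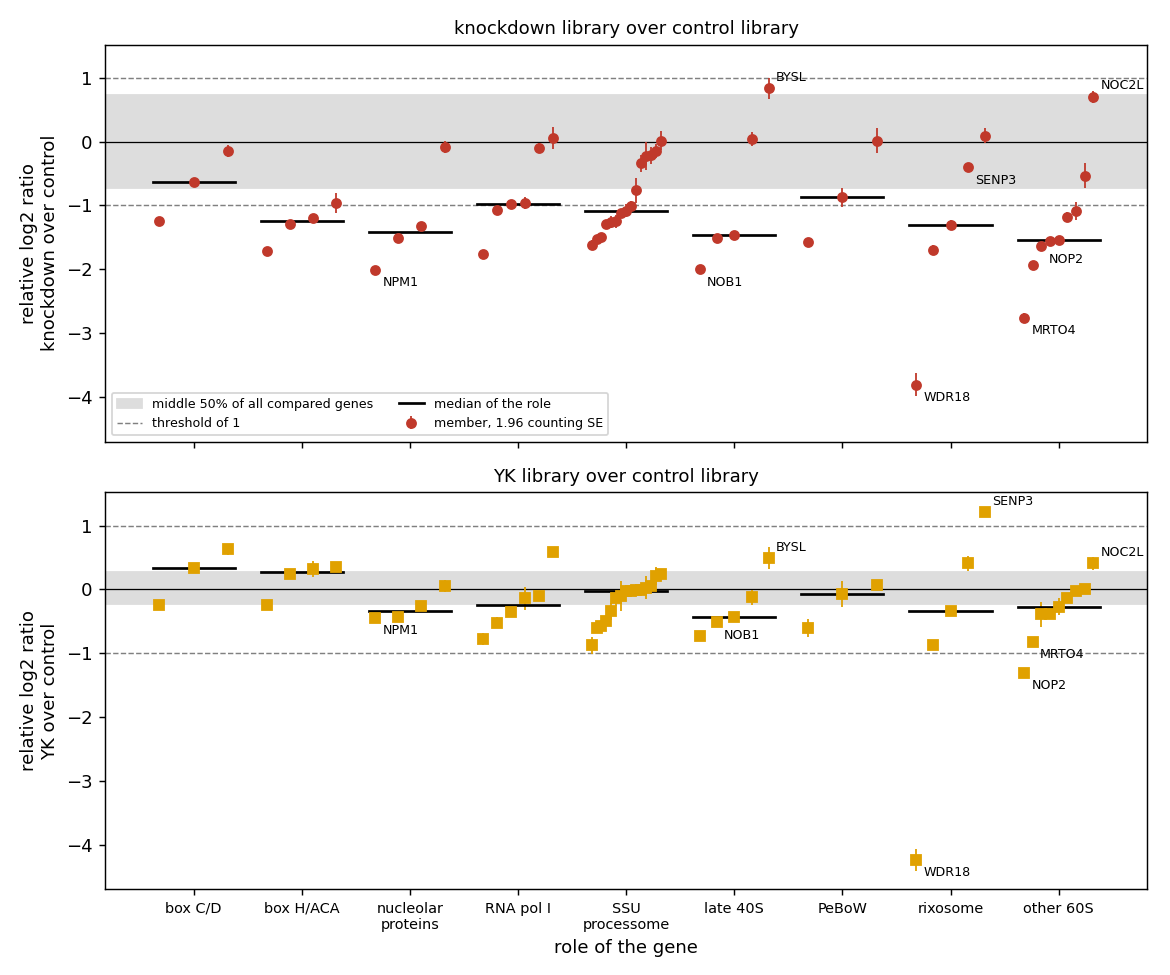
Relative log2 ratio of each of the 54 genes by role, for knockdown over control (top) and YK over control (bottom), with bars of 1.96 counting SE, a line at each role's median, dashed lines at 1 and -1 and a grey band for the middle 50% of compared genes. After knockdown every role median is below 0, from -1.55 (other 60S) to -0.63 (box C/D), whereas with YK they lie between -0.44 and 0.34 and WDR18 stands alone at -4.24.

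The threshold cut through a dense part of the knockdown range. Just inside it were MPHOSPH10 (-1.004) and RRN3 (-1.07), and just outside POLR1C (-0.98) and POLR1E (-0.97). With YK the nearest members were NOP2 (-1.30) inside and NOP14 and LAS1L (both -0.87) outside. For YK over knockdown, LTV1 and WDR43 (both 1.02) were just inside and NOP58 (0.996) and TEX10 (0.98) just outside. Ordered by scaled level, 43 members were lowest in the knockdown library, 7 with YK and 4 in the control, and 34 were highest in the control. The 4 lowest in the control were UTP18, BYSL, PELP1 and NOC2L. Shares of all compared genes in these orders were not counted, so the counts are not read as a result about the members.

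The knockdown ratio moved with the level of a gene, among members and in all compared genes. Compared genes were ranked by scaled FPKM in the YK library, which is outside this comparison, and split into 5 bins of equal size. Few compared genes differed between the YK and control libraries (1.69% lower and 2.41% higher), so this ranking is near to one by the control level. The control level is part of the knockdown ratio, so the ranking is not independent of it. How far this shaped the trend was not tested. The median knockdown ratio of compared genes per bin, in order of rising level, was 0.65, 0.46, 0.11, -0.47 and -0.96. The bins held 3, 2, 9, 12 and 28 members, with medians of 0.01, -0.38, -0.10, -1.02 and -1.39. The lowest bins hold too few members to describe a trend. In the highest bin 24 of 28 members were lower, beside 47.5% of its compared genes, and in the next 6 of 12, beside 24.7%. Across the 54 genes the Spearman correlation of knockdown ratio with that level was -0.56 (Pearson -0.36), and across 9920 compared genes -0.57 (Pearson -0.49). These correlations are across genes of the same libraries, which are not independent replicates.

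Set against the median of compared genes in the same bin, the members' knockdown median was -0.52 and 46 of 54 lay below that median. The 8 members lower by at least 1 on this measure were WDR18, MRTO4, LAS1L, RRP1, NOP2, WDR43, NPM1 and NOB1, and NOC2L was higher (1.17). Over all compared genes 9.10% were lower and 14.0% higher by as much. With YK the same measure gave a median of -0.18, with 37 members below, WDR18 and NOP2 lower and SENP3 higher, beside 1.76% of compared genes lower and 2.31% higher. For YK over knockdown, with bins by the control level, the median was 0.35 and MRTO4 alone was higher by at least 1, beside 7.91% of compared genes. The control level is near to that of the YK library, which is part of this ratio, so these bins are not independent of it either.

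**Figure D4:**
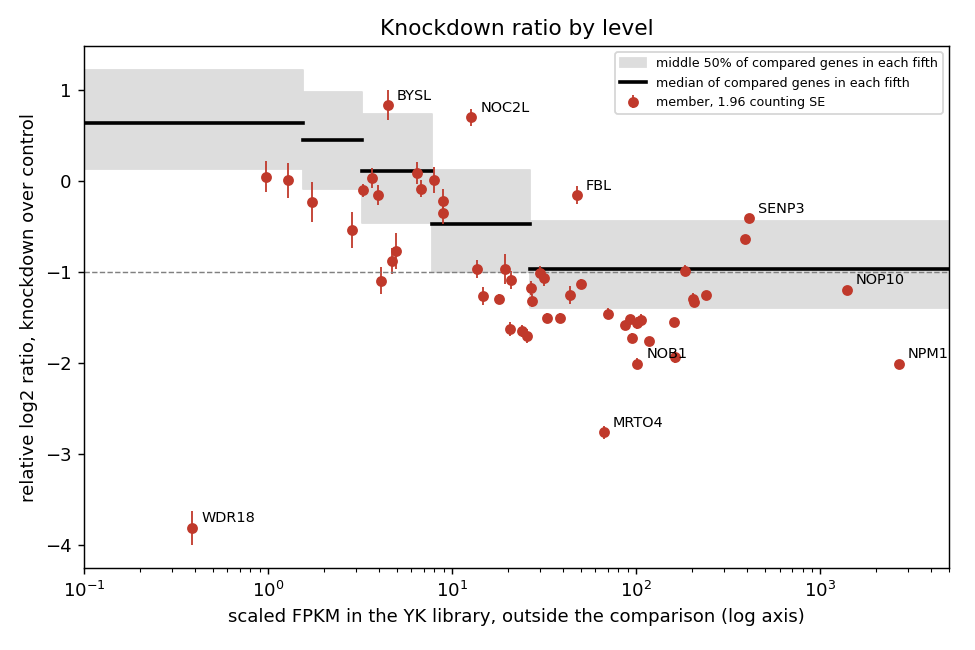
Relative log2 ratio of knockdown over control against scaled FPKM in the YK library (log axis) for the 54 genes, with bars of 1.96 counting SE; black lines and grey bands give the median and middle 50% of compared genes in 5 bins of level. The medians step from 0.65 in the lowest bin to -0.96 in the highest, and most members lie below the line of their bin, with NOC2L and BYSL above it and WDR18 far below.

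Base composition moved with level among the members. GC content of the transcript (GENCODE 29) and log2 scaled FPKM with YK had a Pearson correlation of -0.49 and a Spearman correlation of -0.45 across the 54 genes. The 18 members in the highest of 5 bins of GC content had a median knockdown ratio of -0.32, with 4 lower beside 11.9% of the compared genes of that bin, while the members of the other bins had medians from -1.504 to -1.26. The compared genes had medians of 0.25 in the highest bin and -0.22 in the lowest. Set against the median of compared genes in the same bin of GC content, a measure chosen after seeing the data, the members' knockdown median was -1.13 and 33 of them were lower by at least 1, beside 17.5% of compared genes. GC content and level together were not tested.

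Some members share exons with a neighbour, mostly on the other strand, and whether the counting used strand is not given in the sources used here. In GENCODE 29, 14 of the 54 share at least 100 exon bases with another coding gene. NOP2 shares 2538 bases with AC006064.6 on the same strand, for which no value is given here, so the NOP2 values above may hold reads of both. The same holds for LTV1, which shares 511 bases with AL049844.3 and 132 with AL049844.1, and for RRS1, which shares 194 with AC009879.2. HEATR1 shares 2095 bases with LGALS8, which stood at 0.301 deposited FPKM in the knockdown library, 1.96 with YK and 2.12 in the control. TSR1 shares 1146 bases with SRR, at 0.793, 1.53 and 6.38 in the same order. NOP16 shares 227 bases with HIGD2A, at 63.6, 65.7 and 777, which is of the order of NOP16 itself, at 38.2, 76.7 and 655. Reads of such pairs cannot be told apart here, and their part in the ratios was not tested.

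Other genes of the pathway were taken from a wider list. Of its 140 symbols outside the 54, some of them second names of a gene already listed, 125 were compared. After knockdown their median was -0.90, with 60 lower (48.0%) and 3 higher (2.40%), beside 17.0% and 17.3% of all compared genes. The knockdown ratio moved with level, and these genes were not set against compared genes of the same level. With YK their median was -0.11, with 4 lower (3.20%), BRIX1 (-1.04) among them, and 2 higher, beside 1.69% and 2.41% of all compared genes. After knockdown 13 of 29 further processome genes, 3 of 8 of the late small subunit, 24 of 49 of large subunit assembly, 7 of 16 of RNA polymerase I and 13 of 23 of precursor decay and processing were lower. The lowest were BRIX1 and RPF1, large subunit assembly factors, and the RNA helicase DDX10, at -2.22, -2.21 and -2.01. BRIX1 had 28.4 deposited FPKM in the knockdown library, 44.2 with YK and 595 in the control. The highest were TAF1C, part of the RNA polymerase I promoter selectivity factor, at 1.21, LSG1, a GTPase of the late large subunit, at 1.12, and DDX56, in a joined row, at 1.03. With YK the lowest were EXOSC4, a subunit of the RNA exosome, at -1.32, DDX27 at -1.29 and TSR2 at -1.23. The highest were URB1 at 3.44 and TAF1D at 2.15, both in rows joined with other genes, and POLR2L at 0.73.

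MYC had 17.8 deposited FPKM in the knockdown library, 5.86 with YK and 48.9 in the control, and relative log2 ratios of 0.66 and -0.33, neither past the threshold. On the main scale its ratio after knockdown was above 0 while the median of the 54 genes was below 0. The deposited value of MYC was lower in the knockdown library than in the control, so the sign of its ratio rests on the scale. Whether MYC had a part in the results was not tested. MYCN did not pass the filter, at 0.11, 0.05 and 0.26 deposited FPKM. MAX, the partner of MYC in binding the E-box, had ratios of -0.75 and -0.65.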

How the data were processed

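RNA-seq was made from total RNA of TC32 cells, 1 library per group, with cDNA from a SMARTer kit, per the labels' protocols. The FPKM values were deposited by the authors for 88434 loci in each library, of which 24751 carry a gene name. Per the submitters' processing notes, reads went through CASAVA 1.8.2, TopHat and Cufflinks 2.2.1 with build hg19. For the annotation, filters, scaling between libraries and shared reads, the setting is not given in the sources used here. In the knockdown table the header has dEF where the sample title has shEF, and the labels decided its group.

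Rows were summed per gene name (22714 names), and 9939 names with a mean deposited FPKM of at least 1 were compared. Each library was scaled by its median ratio to the geometric mean of a gene, over compared genes with no 0 in any library, which multiplied the knockdown library by 1.44, the YK library by 2.12 and the control by 0.325. That the scale rests on compared genes, not all named genes, was settled after seeing the data, because the wider set moved the median compared gene to -0.50 for knockdown. A joint shift of all messenger RNA could not be seen. Depth was estimated from steps in low values of unnamed loci and of 164 olfactory receptor genes, with GENCODE 29 transcript lengths for 93.4% of the compared genes. A single fragment in 1 kb stood for about 0.0164 FPKM in the knockdown library, 0.0125 with YK and 0.0622 in the control. The reference annotation belongs to another build and gave only lengths, GC content, exon overlaps and names. RefSeq promoters are on GRCh38.p14. Scaling, calls and the step estimate were tested on simulated data with few changed genes, equal numbers up and down, and no shift with level. The knockdown library differs from that setting, so the simulation does not bear on the choice of scale.

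Members, lists, motifs and the rule for named genes were chosen with earlier results of these data known. The rule names the 8 lowest and 5 highest members of each comparison with the control, the ends of each role, and 3 members at each end of YK over knockdown. Other members are named within ranges or where they share a role or complex with these, and MAX was named after its values were seen. Python 3.11.15 with numpy 2.4.6 was used. Alternatives were another pseudocount, filters, scales, rows, threshold and references of the same level or GC content.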

Additional observations from a re-analysis of the deposited data

How the results depend on the processing

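With 1 library per group the limits are the scale and the depth, and culture-to-culture spread is unknown. The knockdown median (-1.15) was -3.23 with deposited FPKM unscaled, -1.47 with deposited ratios centred, -0.85 on the upper quartile, -1.78 on the scale of all named genes (chosen after seeing the data) and -0.52 against genes of the same level. The YK median (-0.14) was -2.68, -0.48, -0.034 and -0.61 on the same 4 scales, and -0.21 within bins of GC content, also chosen after seeing the data. The median of YK over knockdown (0.98) was 0.43, 0.80, 0.76 and 1.11 on these scales and 0.35 against genes of the same level. The percent of all compared genes with the same call follows each count below. After knockdown the lower members (32) numbered 53 unscaled (71.4%), 18 on the upper quartile (9.69%) and 8 against the same level (9.10%). The higher ones (0) numbered 1 with a pseudocount of 0.1 (24.3%) and 2 on the upper quartile (24.1%). They numbered 1 against the same level (14.0%) and 2 at 1.5-fold (29.3%). With YK the lower members (2) numbered 54 unscaled (92.2%), 8 centred (4.49%), 11 on all named genes (8.18%) and 9 at 1.5-fold (7.07%). The higher ones (1) numbered 2 at 1.5-fold (8.28%). They numbered 0 unscaled (0.573%), centred (12.3%), on all named genes (1.56%) or with rows of a single gene name (2.41%). For YK over knockdown the higher members (25) numbered 5 unscaled (5.08%) and 1 against the same level (7.91%). The lower ones (0) numbered 1 unscaled (21.5%) and 1 at 1.5-fold (26.6%). SENP3 with YK turned to -1.48 unscaled. Unscaled values hold the offset between libraries, a median compared ratio of -1.75 for knockdown and -2.20 for YK; otherwise the cause was not tested. Raising the filter to 5, removing it or setting it on scaled FPKM kept the scale, and with it the ratios of the members. That no count moved by over 1.5 times follows from this and is no check. The compared genes did move. At a filter of 5 their knockdown median was -0.47, with 27.3% lower and 11.2% higher. The 51 members left had a median of -1.19. Without a filter the compared median was 0.088, with 8.34% lower and 10.3% higher. Depth limits NOC4L most in the comparisons with the control (SE 0.114 for knockdown and 0.117 for YK) and WDR18 in YK over knockdown (SE 0.123). No paired analysis was possible because there is 1 library per group.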
